A study of Mus musculus with 32 samples.

Results

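The genes described here are 9 regulators of the step from G1 into S phase in mouse embryonic stem cells (ESCs): the D-type cyclins *Ccnd1*, *Ccnd2* and *Ccnd3*, the E-type cyclins *Ccne1* and *Ccne2*, the transcription factors *E2f1* and *E2f2*, and the CDK inhibitors *Cdkn1a* (p21) and *Cdkn1b* (p27). They were picked by name as rows of the gene count table, 9 of 51826 genes, and all 9 passed the filter on low counts. Total RNA was sequenced from 32 libraries in 11 conditions, with 3 libraries per condition except *Etv5*-KO at N16h, which had 2. All lines derive from RGd2, which carries the Rex1-GFPd2 reporter of the naive state, so every group shares that reporter. In 2i, ESCs are held in N2B27 medium with a MEK inhibitor (PD0325901) and a GSK3 inhibitor (CHIR99021, CH). RGd2 was profiled in 2i, at 16 h and 72 h in N2B27 after withdrawal of the inhibitors (N16h and N72h), after 5 passages in 2i (2i-p5) and after 2 passages in CH alone (CH-p2). Of each 3 RGd2 libraries, 2 came from the parental culture and 1 from a clone of it. *Rbpj*-KO and *Etv5*-KO lines, made by cutting different exons with a pair of guides, were profiled in 2i and at N16h. The *Etv5*/*Rbpj* double knockout (ER-dKO) was profiled after 5 passages in CH (CH-p5), and the triple knockout of *Etv5*, *Tcf7l1* (TCF3) and *Rbpj* (ETR-tKO) after 5 passages in N2B27 with no inhibitor (N-p5). Within a condition the knockout libraries came from different clonal lines, the *Rbpj*-KO and *Etv5*-KO lines at N16h being among those profiled in 2i. The dKO and tKO lines were sequenced in 1 culture only, so that genotype and medium cannot be told apart in their comparisons with RGd2 2i-p5. Against RGd2 CH-p2 (dKO) and N72h (tKO) the medium was shared. There genotype cannot be told apart from time in culture, 5 passages against 2 passages and 5 passages against 72 h. Per the study's methods, lines were kept in CH with LIF and moved to 2i shortly before an experiment.

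D-type cyclins bind CDK4 and CDK6 and begin the phosphorylation of the retinoblastoma protein, and E-type cyclins bind CDK2 and complete it. Phosphorylated retinoblastoma protein releases E2F factors, which drive genes of DNA replication, among them the E-type cyclins and E2F genes themselves. p21, a classical p53 target, and p27 bind cyclin-CDK complexes and restrain them. Mouse ESCs are known for a short G1 phase, and cell cycle control changes when they leave the naive state.

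Of the 9 genes, 6 have a RefSeq promoter window (GRCm38.p6, 250 bases before to 50 after a start site), 9 windows in all. *Ccnd1*, *Ccnd2* and *Ccne2* have none. The windows were searched on both strands for E2F (TTTCCCGC or TTTGGCGC), ETS (CCGGAAG, the family of ETV5), RBPJ (GTGGGAA) and TCF (CTTTGAT or CTTTGAA) letters and for the full p53 consensus. For p53 both CWWG cores (W is A or T) had to match, with at most 1 mismatch at the other positions. The p53 search was added after the *Cdkn1a* window had been read. The 3 matches are shown because p53 targets, E2F genes and the deletion of *Etv5* are described below. Capitals mark the match, and no match overlapped another.
*Cdkn1a*, p53 type, chr17:29090923-29090952, plus strand: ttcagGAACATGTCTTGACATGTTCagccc
*E2f2*, E2F type, chr4:136172294-136172323, plus strand: cgaatttggcggcatatagTTTGGCGCtaa
*Ccnd3*, ETS type, chr17:47593318-47593347, plus strand: gacccgagggcCCGGAAGcgtgcgggccgg
Of all 32851 windows of this length, 0.055% held the p53 type, 1.565% the E2F type and 8.858% the ETS type. The RBPJ type was in 6.383% and the TCF type in 8.651% of all windows and in 0 of these 9. The *Cdkn1a* match begins 51 bases before the start of the counted gene model, in 1 of the 2 windows of that gene. The *Ccnd3* match begins 138 bases before an internal start, whereas the *E2f2* match begins 39 bases after a start that lies upstream of the counted gene model. These are matches of letters, not measured binding.

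Library totals on genes ran from 5986857 to 71439411 counts (median 29940141). Counts were divided by spike-in size factors (normalized counts), and 18892 genes were tested with edgeR. A gene was called when its Benjamini-Hochberg adjusted p was under 0.05 and its mean FPKM, the count scaled to gene length and to the library's total on genes, reached 1 in either group. Spike-in scaling lets the bulk of genes move together: the median log2 change over all genes tested ran from -0.37 to 0.47 between comparisons, so changes are also given relative to that median, and calls lost under TMM, which centers the bulk of genes, are named. The library labelled RGd2 2i replicate 31 stood apart, with the lowest spike-in share of all (0.991%) and a spike-in size factor 0.784 times that of TMM, which places its normalized counts high. RGd2 2i replicate 33, the clone and the shallowest library, stood apart as well, with a chi-square per gene of 39.7 and 38.7 against replicates 31 and 32, which differed by 7.74 from each other. It held 24.8 FPKM of *Ccnd3* against 14.7 and 13.2, and 4.55 of *E2f2* against 2.62 and 2.38. *Etv5* was 2241 ± 146 (SD, n = 3) in *Etv5*-KO against 15475 ± 1338 (SD, n = 3) in RGd2 in 2i, *Rbpj* 1097 ± 139 (SD, n = 3) in *Rbpj*-KO against 4469 ± 571, and *Tcf7l1* 85.4 ± 49.2 (SD, n = 3) in ETR-tKO. These counts span whole genes, not only the deleted exons. *Rbpj* was 1138 and 1307 in ER-dKO replicates 10 and 11 but 3489 in the library labelled ER-dKO replicate 12, above the 2830 to 3385 of RGd2 2i-p5. Markers of naive ESCs (8 genes, all above 1 FPKM in every condition but RGd2 N72h, where 5 were) summed to 55.5 to 59.6 FPKM at N72h, 275 to 309 in CH-p2 and 357 to 368 at N16h in RGd2, against 733 to 781 in 2i-p5 and 869 to 929 in 2i. In bulk RNA, fewer cells of a type and less RNA per cell cannot be told apart.

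Of the 5 cyclins described here, *Ccnd1* and *Ccne1* were the most abundant per length. Mean FPKM of *Ccnd1* lay between 31.9 and 58.9 in the 11 conditions and that of *Ccnd3* between 5.70 and 26.9. *Ccnd2* ran from 0.0313 to 13.1 FPKM, below *Ccnd3* in every condition except RGd2 CH-p2, where *Ccnd2* stood at 7.58 ± 1.61 (SD, n = 3) and *Ccnd3* at 5.70 ± 0.50. *Ccne1* exceeded *Ccne2* throughout, with 21.1 to 88.6 against 3.02 to 9.70 FPKM. *E2f1* lay between 2.04 and 6.53 and *E2f2* between 0.866 and 4.84 FPKM. The genes also differed in how far they moved: the highest condition mean of normalized counts was 2.03 times the lowest for *Ccnd1*, 2.33 times for *Cdkn1b*, 10.8 times for *Cdkn1a* and 404 times for *Ccnd2*, with the other 5 between 3.57 and 6.25 times.

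**Figure D1:**
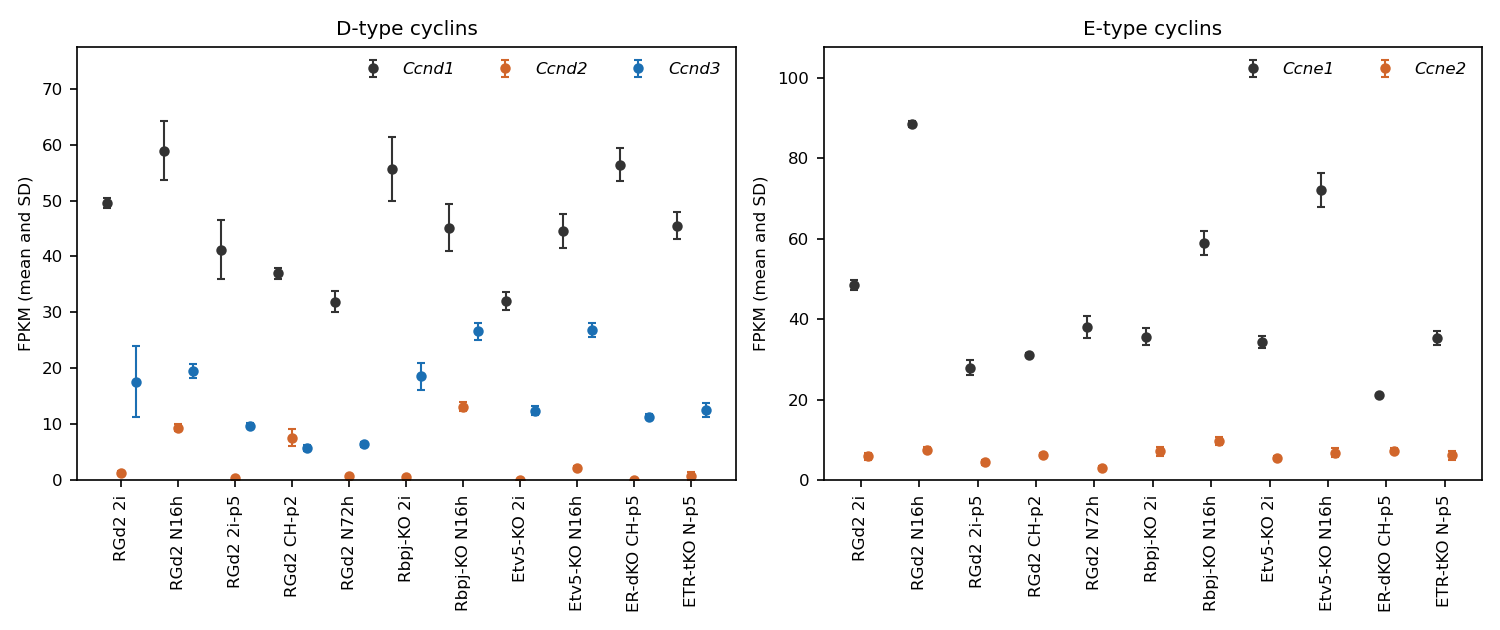
FPKM of the D-type cyclins (left) and E-type cyclins (right) in the 11 conditions; points are means and bars the SD of 3 libraries (2 for Etv5-KO N16h). Ccnd1 is the highest D-type cyclin in every condition and Ccne1 the higher E-type cyclin, while Ccnd2 passes Ccnd3 in RGd2 CH-p2 alone.

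**Figure D2:**
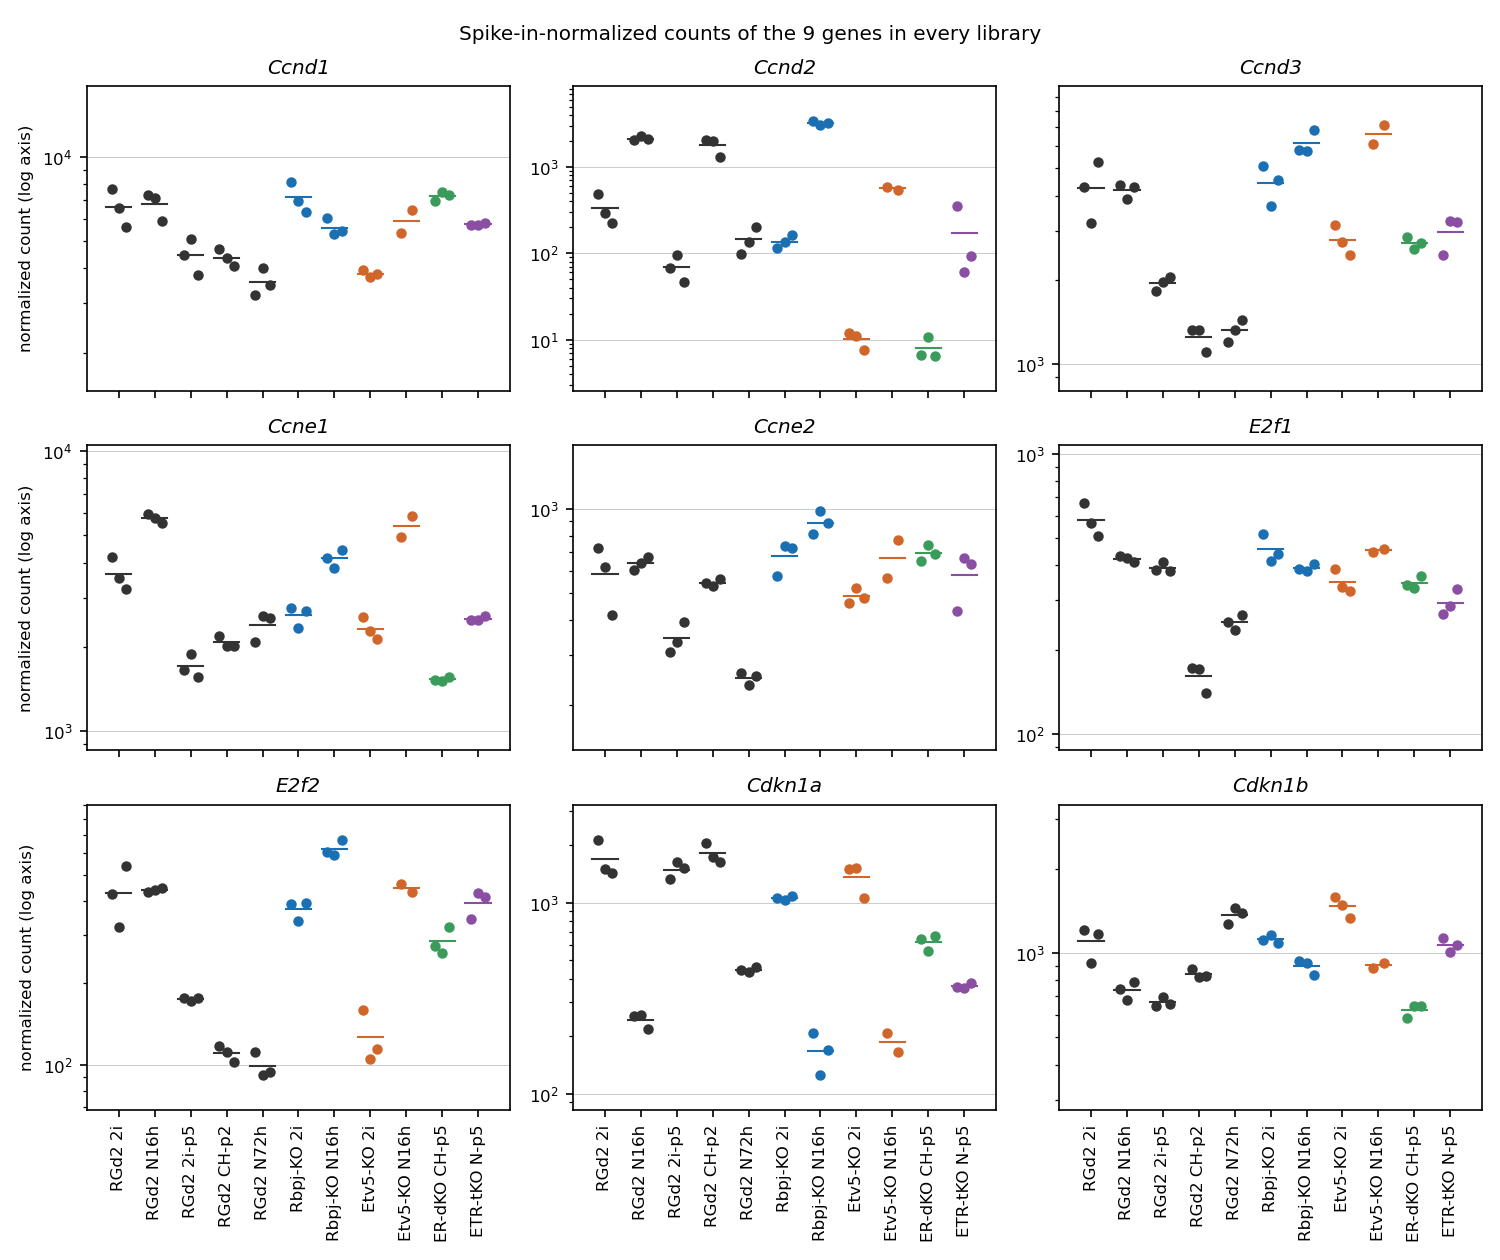
Normalized counts of the 9 genes in each library (points) with the condition mean (line), on log axes; colors mark the genotype (RGd2 dark grey, Rbpj-KO blue, Etv5-KO orange, ER-dKO green, ETR-tKO purple). Cdkn1a is low in every N16h library, and Ccnd2 is near 10 in Etv5-KO 2i and ER-dKO CH-p5.

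At 16 h after 2i withdrawal, RGd2 cells had lost most *Cdkn1a* and gained *Ccnd2* and *Ccne1*. Of the 9 genes, 2 rose and 3 fell, beside 8.63% higher and 37.4% lower (46% in all) of the 11748 genes that could be called. *Cdkn1a* had normalized counts of 2124, 1489 and 1429 in the RGd2 2i libraries and 255, 256 and 217 at N16h. The groups did not overlap, and the fall of 6.94-fold (log2 fold change -2.79 ± 0.16 SE, adjusted p = 5.61e-18, -2.57 relative to the median) was the largest change among the 9 in this comparison. *Ccnd2* went the other way, from 481, 295 and 226 to 2036, 2257 and 2102, a rise of 6.11-fold (2.61 ± 0.31 SE, adjusted p = 5.51e-09, 2.84 relative to the median). *Ccne1*, the main E-type cyclin here, rose 1.57-fold, from 4190, 3533 and 3218 to 5945, 5788 and 5517 (0.65 ± 0.11 SE, adjusted p = 4.07e-06), again without overlap. *E2f1* fell from a mean of 582 ± 81.2 (SD, n = 3) to 422 ± 9.16 (log2 fold change -0.48 ± 0.12 SE, adjusted p = 0.00165), a call that was lost when only these 6 libraries were fitted. *Cdkn1b* fell from 1100 ± 158 to 739 ± 54.0 (-0.57 ± 0.11 SE, adjusted p = 3.29e-05). Beyond the median these last 2 changes were -0.25 and -0.34. *Ccnd1*, *Ccnd3*, *Ccne2* and *E2f2* overlapped between the groups and were not called, with log2 fold changes between -0.02 and 0.09, although *Ccnd1* was called higher under TMM (0.25, adjusted p = 0.0203). Leaving out replicate 31 or 33 changed none of these calls. Summed markers of trophectoderm were lower at N16h than in 2i, with 1.354 to 1.505 against 10.66 to 14.95 FPKM (1 and 2 of 4 above 1 FPKM, *Elf5* at 0 in both). Those of mesendoderm were 1.63 to 2.10 against 8.23 to 11.7 (1 and 2 of 4) and those of neural cells 16.5 to 20.7 against 48.1 to 57.4 (4 and 2 of 4). Of the neural genes, *Tubb3* (48.6 to 15.1) and *Nes* (2.57 to 1.40) fell, while *Sox1* (0.147 to 1.13) and *Pax6* (0.101 to 1.45) rose. Primitive endoderm sums overlapped, with 0.407 to 2.56 FPKM in 2i and 0.689 to 2.12 at N16h. Sums for 2-cell-like cells overlapped too, with 3.03 to 16.2 and 2.35 to 21.1. The part of these markers was not tested.

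*Cdkn1a* also fell in both mutants. It went from 1052, 1030 and 1085 to 208, 126 and 169 in *Rbpj*-KO (log2 fold change -2.64 ± 0.16 SE, adjusted p = 2.29e-16) and from 1503, 1507 and 1058 to 207 and 165 in *Etv5*-KO (-2.87 ± 0.18 SE, adjusted p = 4.01e-16). The difference from the RGd2 response was 0.15 ± 0.22 (SE, adjusted p = 0.764) and -0.07 ± 0.22 (SE, adjusted p = 0.831) and was not detectable beyond the spread between libraries. Relative to the median of all genes it was -0.06 in *Rbpj*-KO and -0.54 in *Etv5*-KO. Under TMM the *Etv5*-KO difference was -0.54 (adjusted p = 0.0507), just short of a call, so for *Etv5*-KO it depends on the scaling. In these 2 comparisons within a genotype, 4 of the 9 rose and 3 fell in *Rbpj*-KO, beside 11.6% higher and 16.3% lower (27.9% in all) of 11776 genes, and 7 rose and 2 fell in *Etv5*-KO, beside 31.3% and 9.47% (40.7% in all) of 11832. Without *Rbpj*-KO N16h replicate 21 the first count dropped from 7 to 4, *Ccnd1*, *Ccnd3* and *Cdkn1b* losing their calls. That replicate, line c36, had primitive endoderm markers summing to 9.60 FPKM, against 1.21 and 1.86 in the other *Rbpj*-KO N16h libraries. The same line had 7.46 FPKM in 2i (replicate 30), against 0.626 and 1.04 in the other *Rbpj*-KO 2i libraries. The part of those markers was not tested.

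**Figure D3:**
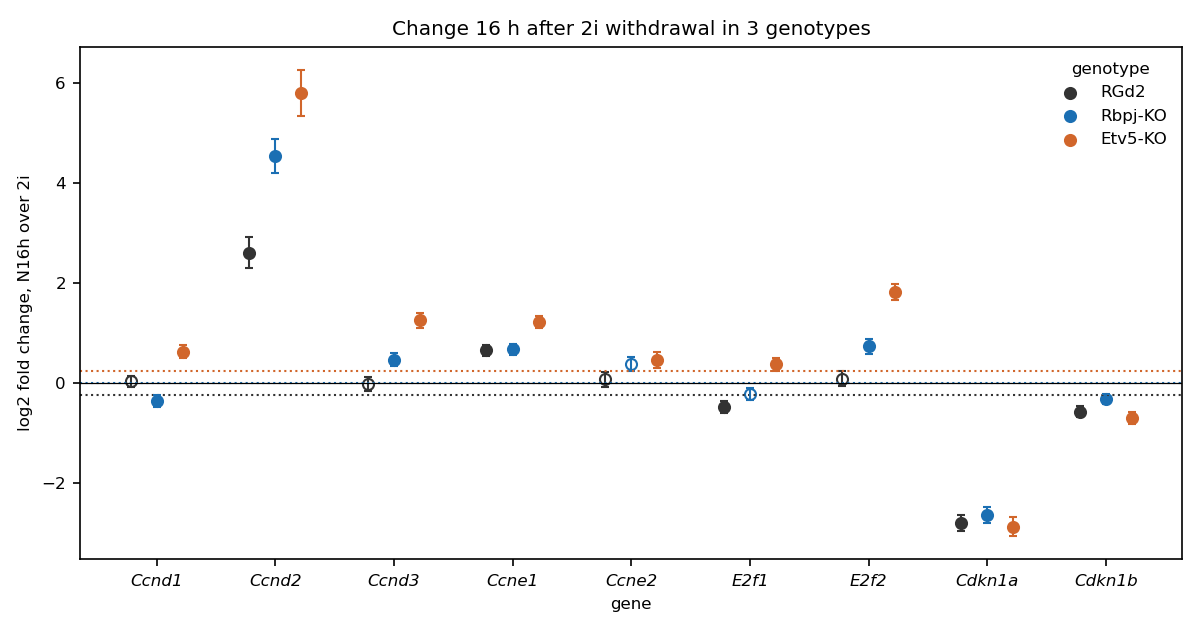
Log2 fold change of N16h over 2i within each genotype, with SE bars; filled points were called, open points were not, and dotted lines give the median of all genes tested (-0.23 in RGd2, -0.01 in Rbpj-KO and 0.24 in Etv5-KO). Cdkn1a falls by 2.64 to 2.87 in all 3 genotypes, whereas Ccnd2, E2f2 and Ccnd3 rise most in Etv5-KO.

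As a ratio, *Ccnd2* rose more in both mutants, from a lower start. In *Etv5*-KO 2i that start was low, with raw counts of 17, 13 and 12. In *Rbpj*-KO it went from 114, 135 and 161 to 3385, 3050 and 3262, a 23.1-fold rise, and in *Etv5*-KO from 11.8, 10.98 and 7.57 to 592 and 537, a 55.7-fold rise. Against the RGd2 response the log2 difference was 1.92 ± 0.43 (SE, adjusted p = 0.00673) in *Rbpj*-KO and 3.19 ± 0.58 (SE, adjusted p = 7.16e-05) in *Etv5*-KO. The end points differed: at N16h *Rbpj*-KO exceeded every RGd2 library (log2 fold change 0.60 ± 0.28 SE, not called at an adjusted p of 0.14), while *Etv5*-KO stayed 3.78-fold below (-1.92 ± 0.34 SE, adjusted p = 2.85e-05). In 2i, where *Ccnd2* reached only 1.22 FPKM in RGd2, it was 34.5-fold lower in *Etv5*-KO (-5.11 ± 0.45 SE, adjusted p = 1.14e-11) and 2.497-fold lower in *Rbpj*-KO (-1.32 ± 0.33 SE, adjusted p = 0.0059). Without RGd2 2i replicate 31, the last value became -0.95 and was no longer called, and the difference in response of *Rbpj*-KO became 1.56, also not called.

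In *Rbpj*-KO against RGd2, *Ccne1* and *Cdkn1a* were lower in both conditions. In 2i, 4 of the 9 were lower and 0 higher, beside 6.12% lower and 5.24% higher (11.4% in all) of 11546 genes. *Ccne1* had 2748, 2331 and 2693 in *Rbpj*-KO against 4190, 3533 and 3218 (-0.50 ± 0.11 SE, adjusted p = 0.00107), and *Cdkn1a* was 1.60-fold lower (-0.68 ± 0.14 SE, adjusted p = 0.000929), both without overlap. The *Ccne1* call was lost when only these 6 libraries were fitted (adjusted p = 0.191). *E2f1* overlapped between the groups, its call (-0.38 ± 0.12 SE, adjusted p = 0.0422) being lost in 6 of 13 alternatives. At N16h, 3 were higher and 2 lower, beside 18.8% and 3.41% (22.2% in all) of 11717 genes. *Ccnd3* had 5794, 5777 and 6855 against 4377, 3892 and 4279 (0.55 ± 0.13 SE, adjusted p = 0.00234, 0.41 relative to the median). *Ccne2* (0.48 ± 0.15 SE, adjusted p = 0.0177) and *E2f2* (0.50 ± 0.14 SE, adjusted p = 0.0112) were higher too, but neither under TMM, where *Ccnd1* and *E2f1* were called lower. *Ccne1* (-0.47 ± 0.11 SE, adjusted p = 0.000962) and *Cdkn1a* (-0.53 ± 0.16 SE, adjusted p = 0.0194) were lower again. The count of 5 fell to 3 when RGd2 N16h replicate 22 or 23 or *Rbpj*-KO N16h replicate 20 or 21 was left out, the call of *Cdkn1a* being lost each time (-0.36 to -0.52), and became 8 when only these 6 libraries were fitted.

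Naive *Etv5*-KO cells had less of the D-type cyclins and both E2F genes and more *Cdkn1b*. In 2i, 6 of the 9 were lower and 1 higher than in RGd2, beside 27.9% and 6.14% (34% in all) of 11569 genes. After *Ccnd2*, the largest change was that of *E2f2*, with 160, 106 and 114 against 424, 320 and 537 (-1.71 ± 0.16 SE, adjusted p = 3.72e-11, -1.48 relative to the median). The study names *E2f2* among its ETV5 targets in 2i, from ETV5 ChIP-seq peaks and RNA-seq. *Ccnd1* was 3932, 3735 and 3807 against 7648, 6573 and 5600 (-0.79 ± 0.12 SE, adjusted p = 1.4e-06), and *Ccnd3* (-0.61), *Ccne1* (-0.66) and *E2f1* (-0.75) were lower by similar amounts. No *Etv5*-KO library reached the RGd2 range for these genes. *Cdkn1b* had 1584, 1484 and 1335 against 1210, 920 and 1171 (0.42 ± 0.10 SE, adjusted p = 0.00214, 0.65 relative to the median). TMM gave the same 7 calls, and a fit of these 6 libraries alone lost that of *Cdkn1b* (adjusted p = 0.153). Without RGd2 2i replicate 33, *Ccne2* (-0.46, adjusted p = 0.00888) and *Cdkn1a* (-0.41, adjusted p = 0.0208) were called lower as well. At N16h 2 were called, *Ccnd2* lower and *Ccnd3* higher, with 6106 and 7152 against 4377, 3892 and 4279 (0.67 ± 0.15 SE, adjusted p = 0.000704), beside 29.3% higher and 3.24% lower (32.5% in all) of 11735 genes. TMM called 5, with *Ccnd1*, *Ccne1* and *Cdkn1a* lower as well. The responses to withdrawal differed for 6 of the 9, all higher in *Etv5*-KO than in RGd2, beside 36.7% of 12246 genes higher and 0.531% lower (37.3% in all). The difference was 1.74 ± 0.22 (SE, adjusted p = 1.98e-07) for *E2f2* and 1.27 ± 0.20 (SE, adjusted p = 8.19e-06) for *Ccnd3*, or 1.27 and 0.81 relative to a median of 0.47. *Ccnd1* (0.59), *Ccne1* (0.57) and *E2f1* (0.85) lost their calls under TMM, where *Cdkn1b* was called lower, and *Ccnd1* (0.45) and *Ccne1* (0.43) also without *Etv5*-KO N16h replicate 18. For *Rbpj*-KO, 1 of the 9 responses differed, that of *Ccnd2*, beside 3.79% higher (4.03% in all) of 12162 genes. TMM also called the *Ccnd1* response, lower in *Rbpj*-KO than in RGd2 (-0.59, adjusted p = 0.00377). With spike-in scaling it was -0.39 and not called, or -0.61 relative to the median. *Ccne2* rose in *Etv5*-KO on withdrawal (0.46 ± 0.16 SE, adjusted p = 0.0253), but not with the clonal line as a block (0.41, adjusted p = 0.0795). Without replicate 18 its value was 0.22, and the rise of *E2f1* there (0.38 ± 0.13 SE, adjusted p = 0.0243) was not called without either N16h library (0.39 and 0.36).

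**Figure D4:**
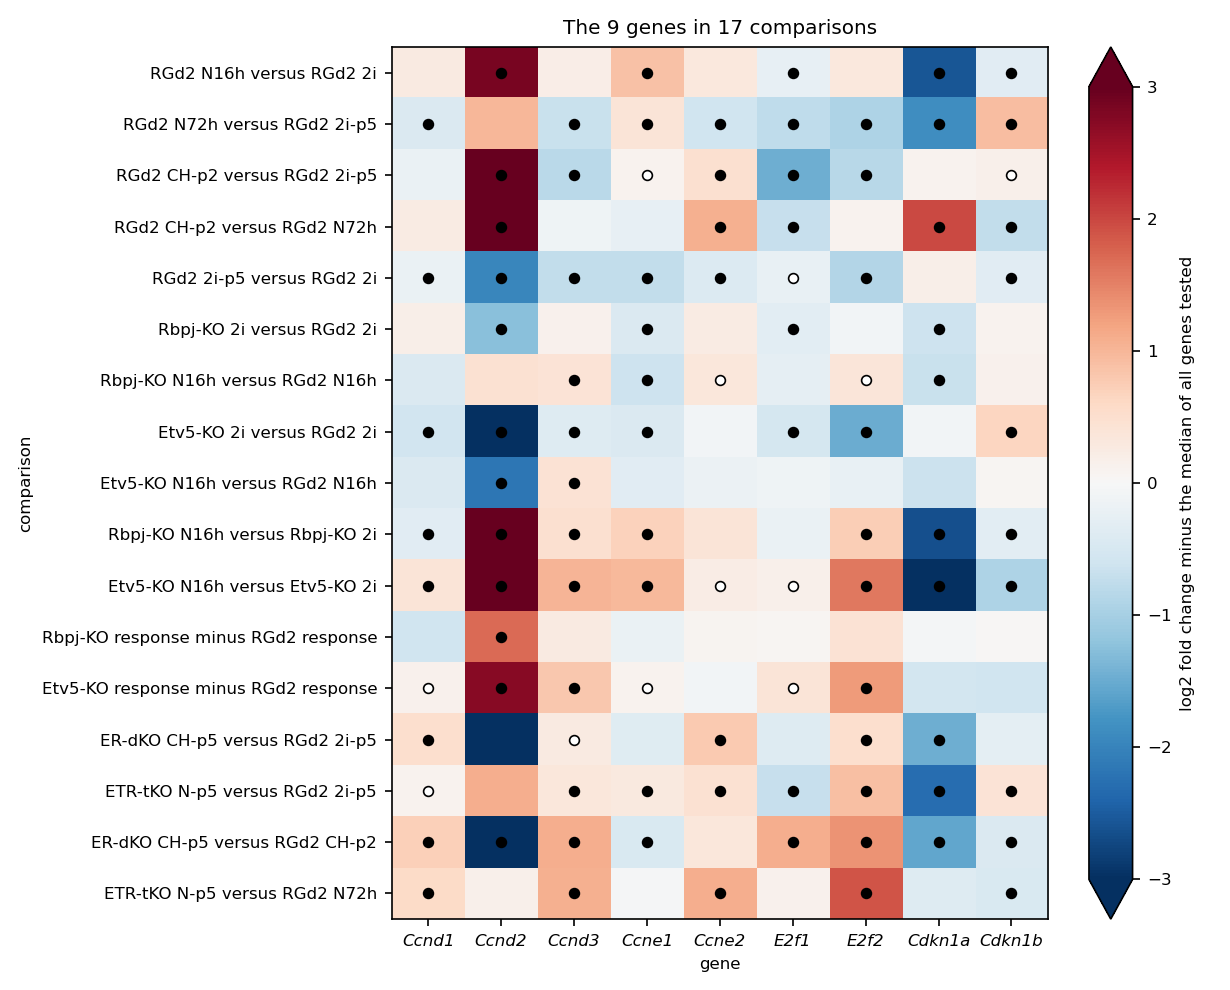
Log2 fold change minus the median of all genes tested for the 9 genes (columns) in 17 comparisons (rows); the color scale ends at -3 and 3. Dots mark calls, black where TMM gave the same call and white where it did not. Cdkn1a is blue in the N16h, N72h, ER-dKO and ETR-tKO rows against 2i, and Ccnd2 holds the extreme values.

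After 72 h in N2B27, the 2 CDK inhibitors had moved in opposite directions. Against RGd2 2i-p5, 2 of the 9 rose and 6 fell, beside 34.2% and 22.9% (57.1% in all) of 12247 genes. *Cdkn1a* had 446, 431 and 459 against 1322, 1632 and 1508 (-1.74 ± 0.15 SE, adjusted p = 6.88e-13). *Cdkn1b* had 1273, 1446 and 1388 against 648, 697 and 657 (1.04 ± 0.11 SE, adjusted p = 8.89e-11), its highest level in RGd2, and the rise was 0.32 with RGd2 2i as the control. Among the E2F genes, *E2f2* fell from 175 ± 2.38 (SD, n = 3) to 99.5 ± 10.9 (-0.81 ± 0.17 SE, adjusted p = 0.00012) and *E2f1* from 392 ± 16.7 to 251 ± 14.9 (-0.64 ± 0.13 SE, adjusted p = 4.86e-05). *Ccnd3* (-0.56), *Ccne2* (-0.48) and *Ccnd1* (-0.32) fell less, and the *Ccnd1* groups overlapped. The *Ccnd1* call was lost without 2i-p5 replicate 2 (-0.21) or N72h replicate 7 (-0.25) or 9 (-0.30), and that of *Ccne2* without 2i-p5 replicate 3 (-0.37). *Ccne1* rose (0.49 ± 0.11 SE, adjusted p = 0.0002). Primitive endoderm markers summed to 5.04 to 15.2 FPKM at N72h against at most 0.861 in 2i-p5, with 3 of 6 above 1. Neural markers summed to 77.0 to 92.4 against 23.4 to 25.8, with 2 of 4 above 1 in both, but RGd2 2i had 48.1 to 57.4. Of the neural genes, *Nes* (3.43 to 45.9), *Tubb3* (20.2 to 37.1) and *Sox1* (0.0512 to 0.410) rose from 2i-p5, while *Pax6* (0.598 to 0.118) fell. The part of these markers was not tested. The choice of control bears on these values, because RGd2 2i-p5 itself was below RGd2 2i for 8 of the 9 genes, all but *Cdkn1a*, beside 49.4% lower and 2.89% higher (52.3% in all) of 11552 genes. Those differences ran from -0.57 for *Ccnd1* to -2.33 for *Ccnd2*, around a median of -0.37 for all genes, and 7 were called under TMM. Against RGd2 2i, *Ccne1* at N72h was lower (-0.61) instead of higher, and so was *Ccnd2* (-1.23 in place of 1.10, where both groups were under 1 FPKM).

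Passaging RGd2 in CH alone, in which the MEK inhibitor is missing, gave another pattern, with *Cdkn1a* kept and *Ccnd2* high. Against 2i-p5, 4 of the 9 were higher and 3 lower, beside 28.6% and 13.6% (42.2% in all) of 12054 genes. *Ccnd2* had 2059, 2016 and 1304 against 68.3, 96.0 and 46.3, 25.9-fold higher (4.70 ± 0.37 SE, adjusted p = 1.52e-13), or 2.36 on the log2 scale with RGd2 2i as the control. *Cdkn1a* had 2055, 1732 and 1633, all above 2i-p5 but not called (0.28 ± 0.14 SE, adjusted p = 0.13). *E2f1* had 172, 170 and 140, its lowest level of any condition (-1.28 ± 0.14 SE, adjusted p = 4.06e-10). *E2f2* (-0.66) and *Ccnd3* (-0.64) were lower as well, while *Ccne2* was higher (0.64 ± 0.16 SE, adjusted p = 0.00122). The calls of *Ccne1* (0.28) and *Cdkn1b* (0.33) were lost under TMM and without CH-p2 replicate 4 (0.25 and 0.30), that of *Ccne1* also without any other CH-p2 library (0.30) or 2i-p5 replicate 1 or 3 (0.27 and 0.22), and turned to -0.82 and -0.38 with RGd2 2i as the control, where *Ccne2* was at -0.15 and not called. The mesendoderm gene *T* stood at 69.1 ± 1.89 FPKM (SD, n = 3) in CH-p2 against 5.81 ± 1.03 in 2i-p5. The other mesendoderm markers did not follow it. *Eomes* was at 1.91 against 2.64 FPKM and *Gsc* at 0.0548 against 0.565, both lower, and *Mixl1* at 0.557 against 0.345. The part of the cells with *T* was not tested. Set against N72h directly, CH-p2 was higher for *Cdkn1a* (2.02 ± 0.15 SE, adjusted p = 4.19e-14), *Ccnd2* (3.60 ± 0.33 SE, adjusted p = 1.03e-11) and *Ccne2* (1.12 ± 0.16 SE, adjusted p = 4.14e-07) and lower for *Cdkn1b* (-0.70) and *E2f1* (-0.64), 5 of 9 beside 19.9% higher and 17.3% lower (37.1% in all) of 12153 genes. *Ccnd1* (0.29) joined them with the clonal line as a block (adjusted p = 0.0331).

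ER-dKO cells in CH kept naive markers (778 to 793 FPKM) but not the *Ccnd2* or *Cdkn1a* of RGd2 in the same inhibitor. Against RGd2 CH-p2, 4 of the 9 were higher and 4 lower, beside 28.3% and 21.3% (49.7% in all) of 12083 genes. *Ccnd2* was 6.70, 10.8 and 6.48, against 1304 to 2059 in CH-p2, 206-fold lower (-7.69 ± 0.44 SE, adjusted p = 6.87e-18). *Cdkn1a* had 643, 554 and 670, 2.91-fold lower (-1.54 ± 0.15 SE, adjusted p = 1.51e-11). *E2f1* (1.10 ± 0.13 SE), *E2f2* (1.36 ± 0.17 SE), *Ccnd3* (1.12 ± 0.14 SE) and *Ccnd1* (0.73 ± 0.12 SE) were higher, with adjusted p between 5.6e-09 and 1.63e-06, and *Ccne1* (-0.44) and *Cdkn1b* (-0.42) were lower. Against RGd2 2i-p5, 4 were higher and 1 lower, beside 33.9% and 8.43% (42.4% in all) of 11562 genes. *Cdkn1a* was again lower (-1.26 ± 0.14 SE, adjusted p = 5.18e-09), and *Ccne2* (0.99), *Ccnd1* (0.70), *E2f2* (0.70) and *Ccnd3* (0.48) were higher, the last not under TMM, which called *Ccne1*, *E2f1* and *Cdkn1b* lower. RGd2 2i, not tested against ER-dKO, had means of 586 for *Ccne2*, 6607 for *Ccnd1*, 427 for *E2f2* and 4254 for *Ccnd3*, where ER-dKO had 695, 7248, 284 and 2715. *Ccnd2* was 7.96-fold lower there, in groups both under 1 FPKM. Leaving out ER-dKO replicate 12, the line with the most *Rbpj*, left the counts at 8 and 5.

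ETR-tKO cells grew without inhibitors and had naive markers summing to 764 to 825 FPKM, and their *Cdkn1a* was below that of every RGd2 2i-p5 and N72h library. Against RGd2 2i-p5, 6 of the 9 were higher and 2 lower, beside 37.7% and 9.53% (47.3% in all) of 11814 genes. *Cdkn1a* had 363, 357 and 381 against 1322 to 1632, 4.06-fold lower (-2.02 ± 0.15 SE, adjusted p = 4.15e-14, -2.29 relative to the median). Against N72h the difference was -0.28 ± 0.15 (SE, adjusted p = 0.118) and was not called, but it was under TMM (-0.38, adjusted p = 0.00753), with the median of ratios on genes and when only these 6 libraries were fitted. *E2f2* had 344, 427 and 415 against 177, 172 and 176 in 2i-p5 (1.17 ± 0.16 SE, adjusted p = 9.72e-08) and 112, 92.1 and 94.4 at N72h (1.98 ± 0.16 SE, adjusted p = 1.39e-13). *E2f1* moved apart from it, lower than in 2i-p5 (-0.41 ± 0.12 SE, adjusted p = 0.00751) and not called against N72h (0.23). *Cdkn1b* lay between the 2 RGd2 states, 0.68 ± 0.11 (SE) above 2i-p5 and -0.35 ± 0.10 (SE, adjusted p = 0.00394) from N72h. *Ccne2* (0.72), *Ccnd3* (0.61), *Ccne1* (0.56) and *Ccnd1* (0.37) were higher than in 2i-p5, the last not under TMM or without 2i-p5 replicate 3 (0.26). None of the 6 means above 2i-p5 exceeded that of RGd2 2i, which was not tested against ETR-tKO: 2970 against 4254 for *Ccnd3*, 2517 against 3647 for *Ccne1*, 5740 against 6607 for *Ccnd1*, 578 against 586 for *Ccne2*, 395 against 427 for *E2f2* and 1070 against 1100.2 for *Cdkn1b*. Neural markers summed to 67.4 to 70.7 FPKM in ETR-tKO, with 3 of 4 above 1, against 23.4 to 25.8 in 2i-p5 and 48.1 to 57.4 in RGd2 2i. Most of the sum was *Tubb3*, with 57.7 FPKM in ETR-tKO, 20.2 in 2i-p5 and 48.6 in RGd2 2i. The part of these markers was not tested. Against N72h, 4 were higher and 1 lower, beside 35.5% and 23.6% (59.1% in all) of 12338 genes. *Ccnd2* differed between the 3 tKO lines, with 356, 61.3 and 93.1, and its mean stayed under 1 FPKM. The last 2 lines carry the same prefix, (Tc1), in their labels.

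Of 14 other p53 targets, 1 rose and 6 fell in RGd2 at N16h, beside 8.63% higher and 37.4% lower of all genes that could be called. Their median was -0.21 beside -0.23 for all genes, whereas TMM called 4 in each direction. *Pmaip1* (NOXA, a pro-apoptotic BH3-only protein) rose 2.04 ± 0.21 (SE, adjusted p = 1.57e-10) while *Cdkn1a* fell. *Phlda3* (-1.37 ± 0.12 SE, adjusted p = 2.89e-12) and *Btg2* (-1.04 ± 0.14 SE, adjusted p = 2.06e-07) fell with *Cdkn1a*, and *Phlda3* fell in *Rbpj*-KO (-0.94) and *Etv5*-KO (-0.87) too. In ETR-tKO against 2i-p5, all 14 were higher (13 under TMM), beside 37.7% of all genes, as *Cdkn1a* was lower. Their median was 0.84 beside 0.27, and they ran from *Sesn2* (0.28) to *Pmaip1* (4.22 ± 0.18 SE, adjusted p = 3.94e-21). *Mdm2* (0.90 ± 0.09 SE) and *Ccng1* (0.997 ± 0.098 SE) are among them. *Phlda3*, *Btg2*, *Sesn2*, *Mdm2* and *Ccng1* were picked out here after their values were seen. In ER-dKO against 2i-p5, 3 were higher and 2 lower, beside 33.9% and 8.43% of all genes. *Pmaip1* was higher there by 5.16 ± 0.19 (SE, adjusted p = 2.01e-23). At N72h 7 rose and 2 fell (median 0.19 beside 0.11), beside 34.2% and 22.9% of all genes. In CH-p2 6 were higher and 2 lower (0.22 beside 0.17), beside 28.6% and 13.6%.

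**Figure D5:**
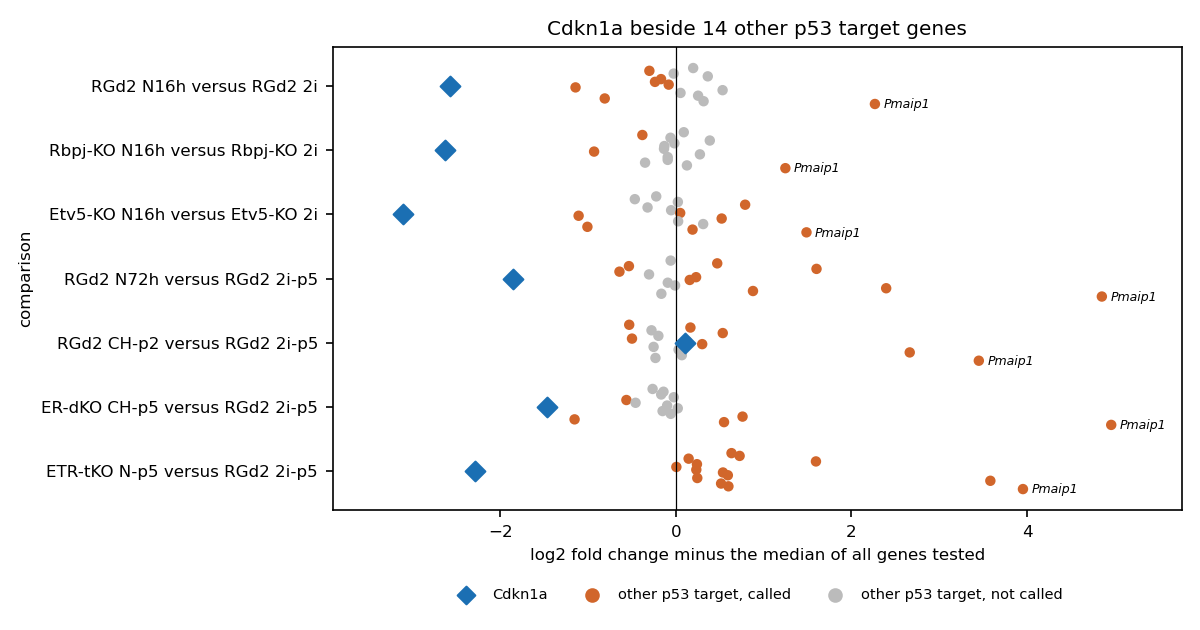
Log2 fold change minus the median of all genes tested for Cdkn1a (blue diamonds) and 14 other p53 targets (circles, orange when called), in 7 comparisons. Cdkn1a lies left of every other target in 6 rows, all but RGd2 CH-p2, and Pmaip1 lies furthest right in all 7.

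Of 22 replication genes driven by E2F, 0 rose and 4 fell in RGd2 at N16h (median -0.13 beside -0.23 for all genes), with 4 higher and 1 lower under TMM. Of all genes that could be called, 8.63% were higher and 37.4% lower there. At N72h 2 rose and 12 fell (median -0.28 beside 0.11), beside 34.2% and 22.9% of all genes. *Cdc45*, a helicase component, fell by -0.97 ± 0.11 (SE, adjusted p = 1.58e-09). In CH-p2, 0 were higher and 11 lower (median -0.26 beside 0.17), beside 28.6% and 13.6% of all genes. ER-dKO against CH-p2 and ETR-tKO against N72h ran the other way, with 19 and 18 of 22 higher and 0 lower (medians 0.55 beside 0.02, and 0.52 beside 0.11). Of all genes, 28.3% and 35.5% were higher and 21.3% and 23.6% lower in these comparisons. In *Etv5*-KO in 2i, where *E2f1* and *E2f2* were lower, 0 were higher and 7 lower (median -0.19 beside -0.23), with 1 in each direction under TMM. Of all genes, 6.14% were higher and 27.9% lower in that comparison. Of 12 G2/M genes, 7 rose and 0 fell at N72h, beside 34.2% higher and 22.9% lower of all genes that could be called. At N16h 1 rose, beside 8.63% higher of all genes. TMM gave 8 there, where it called 2632 genes higher in place of 1014. In ETR-tKO 11 were higher than in 2i-p5, beside 37.7% of all genes. RGd2 2i-p5 was itself below RGd2 2i for the G2/M genes. Those log2 values ran from -0.93 for *Plk1* to -0.03 for *Bub1*, the latter not called, around a median of -0.37 for all genes. The G2/M counts at N72h and in ETR-tKO thus depend on the control.

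Of 25 other G1/S genes, 3 rose and 8 fell at N16h in RGd2 (median -0.19 beside -0.23), beside 8.63% higher and 37.4% lower of all genes. TMM called 4 in each direction. The largest changes were those of further CDK inhibitors. *Cdkn2a* (p16 and p19ARF) fell from 719 ± 19.5 (SD, n = 3) in 2i-p5 to 74.1 ± 2.496 at N72h (-3.27 ± 0.17 SE, adjusted p = 1.32e-19), and by -0.84 ± 0.15 (SE, adjusted p = 2.27e-05) at N16h. RGd2 2i had less of it than 2i-p5, with 434, 366 and 380 (2i-p5 against 2i 0.87 ± 0.15 SE, adjusted p = 2.84e-05). The size of the fall at N72h thus depends on the control. *Cdkn1c* (p57), the third member of the p21 and p27 family, was lower in *Rbpj*-KO at N16h (-3.82 ± 0.71 SE, adjusted p = 8.69e-05) and in ER-dKO against CH-p2 (-4.66 ± 0.73 SE, adjusted p = 1.21e-06). Its level split the RGd2 libraries by line: the clone had the lowest value of each condition, for example 24.2 in 2i, where the highest parental library had 536. *Rb1*, the retinoblastoma gene, was higher in ETR-tKO than in 2i-p5 (1.44 ± 0.15 SE, adjusted p = 1.45e-10). In *Etv5*-KO in 2i, 0 of the 25 were higher and 11 lower (median -0.23 beside -0.23), beside 6.14% and 27.9% of all genes. *Cdk6* was lower by -0.83 ± 0.13 (SE, adjusted p = 5.65e-06), and TMM called 2 of the 25 higher and 7 lower. In *Rbpj*-KO in 2i 1 was higher and 2 lower, beside 5.24% and 6.12% of all genes.

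The pattern over the 11 condition means of log2(FPKM + 1) most like that of *Cdkn1a*, among 13347 genes, was that of *Trp53cor1*, a noncoding RNA gene (Pearson's r = 0.957, *Lamtor5* 0.932 and *Ndufa10* 0.931). *Trp53cor1* (ENSMUSG00000085912.1, chromosome 17, 29057474 to 29078961, minus strand) lies 12018 bases before the start of *Cdkn1a* (ENSMUSG00000023067.13, chromosome 17, 29090979 to 29100722, plus strand). Its normalized counts went from 275 ± 34.8 (SD, n = 3) in RGd2 2i to 7.68 ± 2.81 at N16h and were 36.4 ± 11.2 in ETR-tKO. The nearest patterns were *Armc1* for *Ccne1* (r = 0.987), *Zfp992* for *E2f2* (0.977), *Gabbr1* for *Ccnd3* (0.973), *Il33* for *Ccnd2* (0.970), *Fancl* for *Ccne2* (0.962), *Cbfa2t2* for *E2f1* (0.939), *Ppp2r1a* for *Cdkn1b* (0.887) and *Gm7045* for *Ccnd1* (0.873). Within the 9, *Ccnd3* and *E2f2* were most alike (r = 0.889), and *Cdkn1b* ran against *Ccnd1* (-0.67) and *Cdkn1a* against *E2f2* (-0.64). The conditions share library depth and scaling, and these are descriptions over 11 points.

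In the order of condition means, many neighbors overlapped. For *Cdkn1a* the top 5 conditions, from RGd2 CH-p2 (1807) to *Rbpj*-KO 2i (1056), each overlapped the next, followed by ER-dKO (622), N72h (445), ETR-tKO (367) and RGd2 N16h (243), none of which overlapped its neighbor, and by *Etv5*-KO and *Rbpj*-KO at N16h (186 and 168), which did. For *Ccnd1* the top 7 conditions, from ER-dKO (7248) to *Rbpj*-KO N16h (5583), overlapped in sequence. *Ccnd2* formed steps, with *Rbpj*-KO N16h (3232) alone at the top and *Etv5*-KO 2i (10.1) and ER-dKO (8.01) overlapping at the bottom. For *Ccnd3* the highest were *Etv5*-KO N16h (6629) and *Rbpj*-KO N16h (6142) and the lowest N72h (1324) and CH-p2 (1253). *Ccne1* was highest in RGd2 N16h (5750) and lowest in ER-dKO (1532), *Ccne2* highest in *Rbpj*-KO N16h (891) and lowest in N72h (249), and *E2f1* highest in RGd2 2i (582) and lowest in CH-p2 (161). *E2f2* was highest in *Rbpj*-KO N16h (622), and its lowest 3, *Etv5*-KO 2i (126), CH-p2 (110) and N72h (99.5), overlapped in sequence. For *Cdkn1b*, *Etv5*-KO 2i (1468) and N72h (1369) overlapped at the top and ER-dKO (629) was lowest.

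The genes lie, in GRCm38 coordinates of the counted models, on chromosome 7 for *Ccnd1* (144929931 to 144939925) and *Ccne1* (38097984 to 38107534), both minus strand, and on chromosome 6 for *Ccnd2* (127125162 to 127152193, minus) and *Cdkn1b* (134920401 to 134925513, plus). *Ccnd3* (47505051 to 47599691, plus) shares chromosome 17 with *Cdkn1a*. *Ccne2* (11191351 to 11204779) and *E2f2* (136172394 to 136196057) lie on chromosome 4, both plus, and *E2f1* (154559407 to 154569892, minus) on chromosome 2. Counts are for whole genes, so no isoform can be read from them.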

How the data were processed

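Total RNA was depleted of ribosomal RNA (the labels also call it polyA RNA), ERCC spike-ins were added, and strand-specific paired-end libraries were made. The authors deposited raw counts per gene and per spike-in: reads were trimmed with Trim Galore, aligned with TopHat2 to GRCm38/mm10 and counted with featureCounts over Gencode genes, with no normalization. Versions not printed here are not given in the sources used here. Groups came from the sample labels. RGd2 at N16h has 3 libraries in the labels and 2 in the study's methods, and the labels were followed. The members and lists were chosen with earlier results of these data known.

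Of the 92 spike-ins, 52 were detected in all libraries, and their median ratio to the geometric mean gave each size factor. Spike-ins made up 0.991% to 1.52% of counts, and with exact two-sided permutation tests, whose smallest p is 0.1, no comparison of that share could pass 0.05. FPKM were computed from the deposited counts, gene lengths and library totals on genes. Genes without a symbol (193) held 0.0259% of counts. edgeR 4.0.16 in R 4.3.3 (filterByExpr, glmQLFit, glmQLFTest) tested 18892 genes in a single model of 32 libraries with a coefficient per condition, two-sided, Benjamini-Hochberg adjusted over all genes; calls needed an adjusted p under 0.05 and 1 FPKM in either group, which is the denominator of the shares given. The standard error is the log2 fold change over the root of the F statistic. Replicates are separate lines or cultures by the labels, but 2 of 3 RGd2 libraries share a line. ETR-tKO replicates 14 and 15 carry the prefix (Tc1) in their line labels, and replicate 13 the prefix (ETc1). Chi-square per gene was 4.86 between replicates 14 and 15, but 22.6 and 26.8 against replicate 13. The p-values therefore measure the spread between these libraries. Chi-square per gene between replicates was from 3.25 to 39.7, above the value of about 1 of counting noise, so no library was a copy of another. The scripts were tested on simulated data.

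Libraries of the same clonal line in 2i and N16h are pairs by their line; their deviations from the group means correlated by 0.007 to 0.177. The genes named by rule are the 9 members, the 3 nearest patterns of each (all 3 are printed for *Cdkn1a*, the nearest for the others), the targeted genes, and the called gene with the largest change of each list and comparison, of which examples are printed. *Mdm2*, *Ccng1*, *Sesn2*, *Phlda3* and *Btg2* were added after their values were seen. *Elf5*, *T*, *Mixl1*, *Eomes*, *Gsc*, *Tubb3*, *Nes*, *Sox1* and *Pax6* are from the marker lists. Alternatives were TMM, gene and total spike-in size factors, DESeq2 1.42.0, no low-count filter, no FPKM minimum, only the libraries compared, the line as a block, RGd2 2i as control and leaving out each library. Figures used Python 3.11.15 and matplotlib 3.10.9.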

Additional observations from a re-analysis of the deposited data

Results flagged for a closer look

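Differences between the responses of mutant and RGd2 cells to 16 h without 2i stood out for 7 pairs of gene and mutant by the test of the difference itself. For *Ccnd2* the difference was 1.92 on the log2 scale in *Rbpj*-KO and 3.19 in *Etv5*-KO. In *Etv5*-KO it was 1.74 for *E2f2*, 1.27 for *Ccnd3*, 0.853 for *E2f1*, 0.593 for *Ccnd1* and 0.566 for *Ccne1*, where the median of all genes was 0.468. Under TMM the last 3 were 0.37, 0.12 and 0.09 and were not called, whereas *Ccnd2*, *E2f2* and *Ccnd3* were. No group of these data has 4 to 10 libraries, so no single library was tested as an outlier.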

How the results depend on the processing

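Of 2169 values of the 9 genes under all alternatives, 2028 kept their side of the threshold and direction, 76 lost a call, 60 gained one and 5 reversed, and 51 more changed sign without being called either way. With RGd2 2i as the control, *Ccnd2* (-1.23) and *Ccne1* (-0.61) at N72h and *Ccne1* (-0.82), *Ccne2* (-0.15) and *Cdkn1b* (-0.38) in CH-p2 reversed, because 2i and 2i-p5 differ. TMM and the median of ratios on genes each called 5 genes in place of 2 for *Etv5*-KO against RGd2 at N16h and 2 in place of 1 for the *Rbpj*-KO difference in response, as did DESeq2 (2) for the latter. Fitting only the libraries compared called 2 in place of 4 for *Rbpj*-KO in 2i and 8 in place of 5 at N16h, and the cause was not tested. Leaving out a library moved the count to 2 to 4 for *Rbpj*-KO in 2i (2 without RGd2 2i replicate 31), to 3 to 6 at N16h, to 4 to 7 for *Rbpj*-KO N16h against 2i, and to 0 to 3 for the *Rbpj*-KO difference in response (0 without RGd2 2i replicate 31, 3 without replicate 32); where *Etv5*-KO N16h kept 1 library, it was assumed to vary like the others. With the clonal line as replicate block, the pairing changed 3 calls, those of *Ccnd1* for CH-p2 against N72h (0.29), *Ccne2* in *Rbpj*-KO (0.40) and *Ccne2* in *Etv5*-KO (0.41), and no other; the counts were 5, 8, 7, 6 and 8 for the RGd2 comparisons and 8, 8, 1 and 6 for those of the mutants. The mutants could not be blocked against RGd2, whose lines differ.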
